A study of Rattus norvegicus with 6 samples.

Results

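The genes described here are 10 components of the Hippo pathway: the coactivators Yap1 and Wwtr1 (the gene of TAZ), the DNA-binding factors Tead1, Tead2, Tead3 and Tead4, the kinase Lats2, and the angiomotins Amot, Amotl1 and Amotl2. They were taken by gene symbol from tables that name 29468 symbols in each of 6 samples. The study sequenced RNA of 3 Schwann cell precursor samples (SCP 1 to 3) and 3 repair Schwann cell samples (RSC 1 to 3), all from LEWIS rats labelled wild type. SCPs came untreated from the sciatic nerves and brachial plexus of embryos at embryonic day 14. RSCs came from the distal stumps of cut sciatic nerves, 1 week after the cut, in rats 10 weeks old. Both were RNA from enzymatically dissociated nerve and no sort for Schwann cells is described. The study's protocol, after its account of the adult nerves, describes the removal of quickly adhering cells on uncoated flasks, and does not say whether SCPs went through that step. The number of animals behind a sample is not given in the sources used here, so the tests measure the spread between these samples, whatever its source. Age, injury and preparation differ together between the groups and cannot be told apart.

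The Hippo pathway limits growth. The kinases encoded by Stk3 and Stk4, with their adaptor Sav1, activate Lats1 and Lats2, which phosphorylate YAP and TAZ and keep them out of the nucleus, and angiomotins bind YAP and TAZ and hold them in the cytoplasm or at cell junctions. When not phosphorylated, YAP and TAZ enter the nucleus and switch on genes through TEAD factors, and in Schwann cells they are known for roles in proliferation, radial sorting and myelination.

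TEAD factors bind the letters GGAATG, and 4 promoter windows that hold this motif are printed because 2 belong to members and 2 to the best known YAP targets. The windows are RefSeq sequences of the GRCr8 build, each with 250 bases before the gene's start and 50 from it. Of the 10 members, 6 had an entry (Yap1, Wwtr1, Tead3, Amot, Amotl1 and Amotl2). Capitals mark the motif, which reads CATTCC where it lies on the strand that is not printed. Yap1 (chr8:13451388-13451687, minus strand) has 1 match, beginning 116 bases before the start. Amotl2 (chr8:112182376-112182675, plus strand) has 1 match, 76 bases before it. Ctgf (chr1:22624565-22624864, minus strand) has 3 matches, 166, 101 and 92 bases before it, and Cyr61 (chr2:237225640-237225939, minus strand) has 1, 113 bases before it. Ctgf and Cyr61 are listed in RefSeq as Ccn2 and Ccn1.
Yap1: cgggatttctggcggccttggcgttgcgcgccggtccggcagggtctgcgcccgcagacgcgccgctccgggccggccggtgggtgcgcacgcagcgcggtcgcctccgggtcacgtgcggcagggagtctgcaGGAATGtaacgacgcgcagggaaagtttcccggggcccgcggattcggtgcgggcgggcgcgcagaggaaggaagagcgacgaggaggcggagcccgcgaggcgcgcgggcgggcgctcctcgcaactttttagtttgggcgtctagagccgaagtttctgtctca
Amotl2: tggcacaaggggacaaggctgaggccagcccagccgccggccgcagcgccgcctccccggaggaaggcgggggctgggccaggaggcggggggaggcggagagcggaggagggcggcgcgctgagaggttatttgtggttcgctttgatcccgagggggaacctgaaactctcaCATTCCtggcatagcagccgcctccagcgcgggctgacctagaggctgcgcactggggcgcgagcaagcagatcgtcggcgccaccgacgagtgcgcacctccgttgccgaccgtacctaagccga
Ctgf: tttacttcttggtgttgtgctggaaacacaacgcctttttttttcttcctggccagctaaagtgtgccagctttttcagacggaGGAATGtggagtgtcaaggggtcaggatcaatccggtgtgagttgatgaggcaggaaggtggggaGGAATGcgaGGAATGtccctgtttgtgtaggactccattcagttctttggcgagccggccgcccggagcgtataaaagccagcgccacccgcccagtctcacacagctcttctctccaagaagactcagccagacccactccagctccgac
Cyr61: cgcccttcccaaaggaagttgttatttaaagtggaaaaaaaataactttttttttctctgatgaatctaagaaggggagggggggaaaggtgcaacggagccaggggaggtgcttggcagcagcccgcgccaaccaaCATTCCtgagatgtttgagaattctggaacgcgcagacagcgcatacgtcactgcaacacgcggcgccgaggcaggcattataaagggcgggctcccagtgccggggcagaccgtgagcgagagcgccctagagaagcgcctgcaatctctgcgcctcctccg
The windows of Wwtr1, Tead3, Amot and Amotl1 hold no match. Of all 33469 windows of this length, 14.2% hold at least 1 match and 0.0956% hold 3 or more. A match of letters is not evidence of binding.

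Expression was deposited for each transcript as FPKM, a count of fragments scaled to the transcript's length and to the number of mapped fragments. A change is given as the log2 fold change of FPKM + 1, RSC minus SCP, so that negative values are higher in SCPs. A gene is called changed at an unadjusted p under 0.01 in limma, and over 4-fold where the log2 fold change also passes 2 in either direction. Much of the reads of some members lay in transcripts that Cufflinks assembled at the locus without a gene name. These unnamed transcripts held 53.8% to 67.5% of Wwtr1 and 58.2% to 100% of Tead1 in all 6 samples, 31.2% to 52.5% of Yap1 in SCPs and 0% in RSCs, and all of Amotl1. Each member is therefore given first by its named transcripts, which the comparison was built on, and then with the unnamed transcripts of its locus added.

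The labels were checked against marker genes. Sox10, which defines the Schwann lineage, lay at 175 to 181 FPKM in SCPs and at 143 to 149 in RSCs, with a log2 fold change of -0.30 that was called (limma adjusted p = 0.0077) but not after median-of-ratios scaling (-0.084, adjusted p = 0.33). S100b, of later Schwann cells, lay at 3.21 to 19.3 against 782 to 924 FPKM. Markers of other cells moved with the groups. All 11 tested leukocyte markers of 12 rose in RSCs (summed 15.8 to 46.3 FPKM in SCPs against 2859 to 3095), as did 7 of 8 fibroblast markers (643 to 1022 against 5380 to 8029) and 3 of 4 perineurial markers (26.7 to 35.1 against 91.7 to 150.4). Of 10 endothelial markers 2 rose (56.0 to 95.3 against 137 to 147), Pecam1 not among them, and of 7 mural markers 1 rose (74.5 to 266 against 116 to 181). In SCPs, 5 of 6 erythroid markers (16729 to 74796 against 0 to 1.85), 4 of 6 muscle markers (53.7 to 189 against 23.2 to 28.3), 2 of 7 neuronal markers (27.5 to 50.9 against 17.5 to 23.9) and 2 of 6 limb mesenchyme markers (102 to 137 against 14.5 to 21.5) were higher. The muscle and the limb lists each also had 1 marker that rose in RSCs, and of 5 epithelial markers 1 rose (2.93 to 13.7 against 5.92 to 7.09). Some markers were too low to be tested. Those tested were 6 mural, 5 erythroid, 5 muscle, 4 neuronal, 4 limb and 2 epithelial markers, and all of the fibroblast, perineurial and endothelial ones. Of all genes tested, 18.1% were called as higher in RSCs and 22.4% as higher in SCPs. Hbe1, Myod1 and Elavl4 were listed at 0 in every RSC sample, while Ptprc and Col1a1 were above 0 in all 6 samples. The part of these cells in the results below was not tested, and in bulk RNA fewer cells of a type and less RNA per cell cannot be told apart.

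Of the 9 members with a mean of at least 1 FPKM in named transcripts, 4 changed, all higher in SCPs: Yap1, Tead2, Amot and Amotl2. Among all 13003 genes tested 40.5% were called, 22.4% as higher in SCPs and 18.1% as higher in RSCs. The 4 members were also called at an adjusted p under 0.01, against 31.6% of all genes. Tead2 and Amot were over 4-fold higher in SCPs, against 3.78% of all genes (11.6% in either direction). The SCP and RSC values of 4 of the 9 members did not overlap, all with SCPs higher, against 58.6% of all genes and 33.7% with SCPs higher. With unnamed transcripts added, all 10 members were tested and 6 changed, Tead1 and Amotl1 joining the 4, against 57.4% of 14019 genes (34.2% as higher in SCPs and 23.2% as higher in RSCs). Tead2 and Amot were again over 4-fold, against 13.1% of all genes and 4.58% as higher in SCPs. The values of 8 members were then apart, 7 of them with SCPs higher, against 72.4% and 43.6% of all genes. The median log2 fold change was -0.49 over the 9 members and -0.17 over all genes in named transcripts, and -0.70 and -0.24 with unnamed transcripts added. Median-of-ratios scaling moved the median of all genes from -0.17 to 0.020, so a change of about that size rests on the scale chosen. Under that scaling the same 4 members were called in named transcripts, with log2 fold changes of -0.58 for Yap1, -4.35 for Tead2, -4.30 for Amot and -1.19 for Amotl2.

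**Figure D1:**
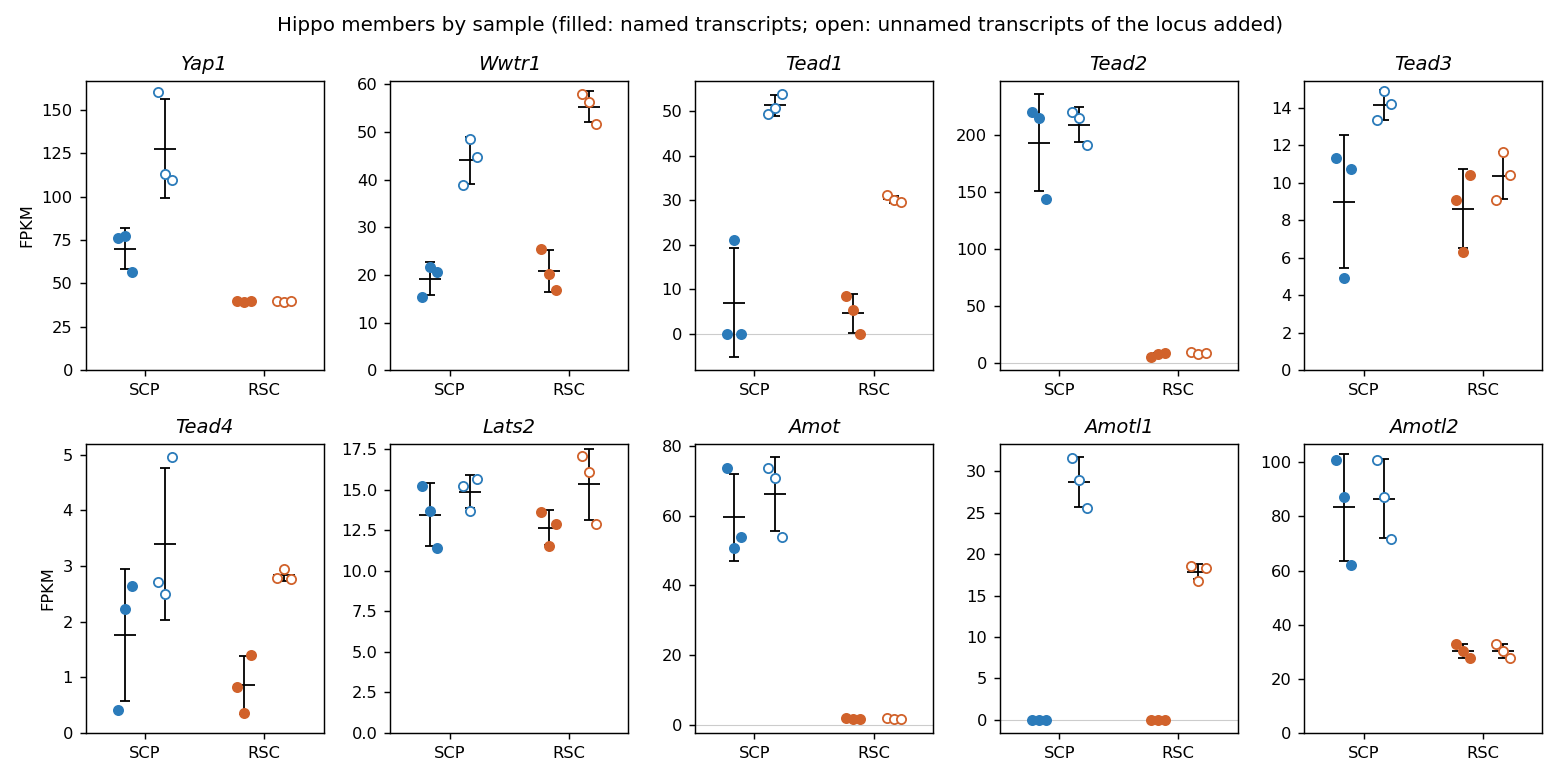
FPKM of each member in SCP and RSC samples, with filled points for named transcripts, open points for the sum with unnamed transcripts of the locus, and bars for the mean and SD of 3 samples. Tead2 and Amot stand far apart between the groups in both sums, while Wwtr1, Tead1, Tead3 and Amotl1 separate only in the open points.

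Yap1 encodes the coactivator YAP (rn6 chr8:6133014-6204226 over its 9 named transcripts). Its named transcripts lay at 76.3, 77.7 and 56.5 FPKM in SCP 1 to 3 and at 39.8, 39.4 and 39.6 in RSC 1 to 3. All SCP values were above all RSC values, and the RSC samples hardly differed from each other. The mean was 1.77-fold higher in SCPs, a log2 fold change of -0.79 ± 0.14 (SE, n = 3 per group, limma adjusted p = 0.0051). The transcripts listed also differed. A reference transcript of 1471 bases held 76.3, 40.9 and 38.1 FPKM in SCPs and was listed at 0 in every RSC sample, where reference transcripts of 4582 to 4630 bases held all of the signal. With unnamed transcripts, Yap1 was 161, 113 and 110 FPKM in SCPs and unchanged in RSCs, for a log2 fold change of -1.64 ± 0.15 (SE, adjusted p = 0.00014). SCP 1 owes part of its higher value to 2 unnamed transcripts with the same FPKM of 42.2 and the same length of 3232 bases, and counting them once brought it to 118 FPKM and the log2 fold change to -1.497.

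Of the 4 unnamed Yap1 transcripts, 3 (1 in each SCP sample) run well past the named gene, with 32.9% to 33.2% of their span inside it. Without such transcripts the log2 fold change was -1.004 (adjusted p = 0.011). FPKM divides by transcript length, and part of the SCP signal lay in shorter transcripts than any used in RSCs. Multiplied back by length in kilobases and summed, Yap1 lay at 385, 349 and 303 in SCPs and at 183, 180 and 183 in RSCs, a log2 fold change of -0.91 ± 0.093 (SE, adjusted p = 0.00012). Yap1 was higher in SCPs in each of these sums, and the size of the difference depended on how transcripts were counted.

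Wwtr1 encodes TAZ, the other coactivator (rn6 chr2:147577149-147693033). Its single named transcript lay at 15.4, 21.7 and 20.7 FPKM in SCPs and at 25.5, 20.2 and 16.9 in RSCs. The groups overlapped, and the log2 fold change was 0.11 with a 95% interval of -0.39 to 0.61 (adjusted p = 0.70). With unnamed transcripts, it lay at 38.8, 48.6 and 44.7 FPKM in SCPs and at 58.0, 56.2 and 51.8 in RSCs. The groups then no longer overlapped, with RSCs higher, but the log2 fold change of 0.33 (95% interval 0.075 to 0.58, adjusted p = 0.030) missed the threshold, which it passed after median-of-ratios scaling (0.59, adjusted p = 0.0034).

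The balance of the 2 coactivators followed from these values. In named transcripts Yap1 made up 78.2% ± 5.0 of their sum in SCPs and 65.7% ± 4.6 in RSCs (SD, n = 3). With unnamed transcripts it made up 73.8% ± 5.8 and 41.7% ± 1.4, and the ratio of Wwtr1 to Yap1 was 0.241, 0.431 and 0.407 in SCPs and 1.46, 1.43 and 1.31 in RSCs. Wwtr1 was thus the lower of the pair in every SCP sample and the higher in every RSC sample in that sum, but it was the lower in all 6 samples in named transcripts. Multiplied by length and summed, Wwtr1 was the lower in every SCP sample. It was then the higher in RSC 1 and RSC 2, but the lower in RSC 3 (146 against 183 for Yap1).

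Tead2, the TEAD factor known from early embryos and neural progenitors, had the highest FPKM of all members in SCPs (rn6 chr1:101213782-101230483). It lay at 221, 215 and 144 FPKM in SCP 1 to 3 and at 5.31, 7.77 and 8.79 in RSC 1 to 3. The lowest SCP value was far above the highest RSC value. The mean was 26.5-fold higher in SCPs, a log2 fold change of -4.55 ± 0.24 (SE, adjusted p = 6.3e-05). With unnamed transcripts the values were 221, 215 and 192 against 9.59, 7.77 and 8.79 FPKM, and the fold was 24.0 (log2 fold change -4.44 ± 0.10, adjusted p = 1.2e-06).

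Tead1, the TEAD factor tied to Schwann cell myelination, was poorly resolved by named transcripts (rn6 chr1:177495500-177714795). These lay at 0, 21.2 and 0 FPKM in SCPs and at 8.54, 5.30 and 0 in RSCs, and each of those values of 0 stood in a sample whose unnamed transcripts at the locus were above 0. The log2 fold change of 0.48 had a 95% interval of -3.18 to 4.14. With unnamed transcripts Tead1 lay at 49.4, 50.7 and 53.8 FPKM in SCPs and at 31.1, 30.1 and 29.6 in RSCs. The groups were apart and each was tight, and the log2 fold change was -0.74 ± 0.076 (SE, adjusted p = 0.00022), or -0.48 after median-of-ratios scaling (adjusted p = 0.0025).

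Tead3 (rn6 chr20:7911562-7930949) lay at 11.4, 4.91 and 10.7 FPKM in SCPs and at 9.11, 6.31 and 10.4 in RSCs in its named transcript, with overlapping groups and a log2 fold change of -0.01 (95% interval -0.86 to 0.84). With unnamed transcripts it lay at 13.4, 14.9 and 14.2 against 9.11, 11.6 and 10.4 FPKM. These groups were apart, but the log2 fold change of -0.42 (adjusted p = 0.020) missed the threshold, and it was -0.17 after median-of-ratios scaling (adjusted p = 0.27). Tead4 (rn6 chr4:161540110-161619842) was the lowest TEAD gene, at 0.404, 2.22 and 2.64 FPKM in SCPs and at 0.823, 0.354 and 1.40 in RSCs. Its interval ran from -1.60 to 0.62 in named transcripts and from -0.71 to 0.39 with unnamed ones, where it lay at 2.72, 2.50 and 4.96 against 2.78, 2.94 and 2.77 FPKM.

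The make-up of TEAD expression differed between SCPs and RSCs. With unnamed transcripts, Tead2 made up 75.2% ± 2.5 of the summed TEAD FPKM in SCPs and 16.7% ± 1.7 in RSCs. Tead1 made up 18.5% ± 1.6 and 58.0% ± 1.0, and Tead3 5.10% ± 0.38 and 19.9% ± 2.4 (SD, n = 3). The ratio of Tead2 to Tead1 was 4.47, 4.24 and 3.56 in SCPs and 0.308, 0.258 and 0.297 in RSCs. Multiplied by length and summed, the 2 genes lay closer together in SCPs. Tead2 was then at 466, 451 and 420 and Tead1 at 457, 468 and 504. In RSCs Tead2 was at 20.0, 16.3 and 18.4 and Tead1 at 292, 282 and 269. In named transcripts Tead2 made up 91.6% ± 3.3 and 34.8% ± 10.9. Summed over the 4 genes, TEAD expression was 211 ± 46.7 FPKM in SCPs and 21.4 ± 2.1 in RSCs in named transcripts, and 278 ± 11.7 against 52.2 ± 0.56 with unnamed ones.

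**Figure D2:**
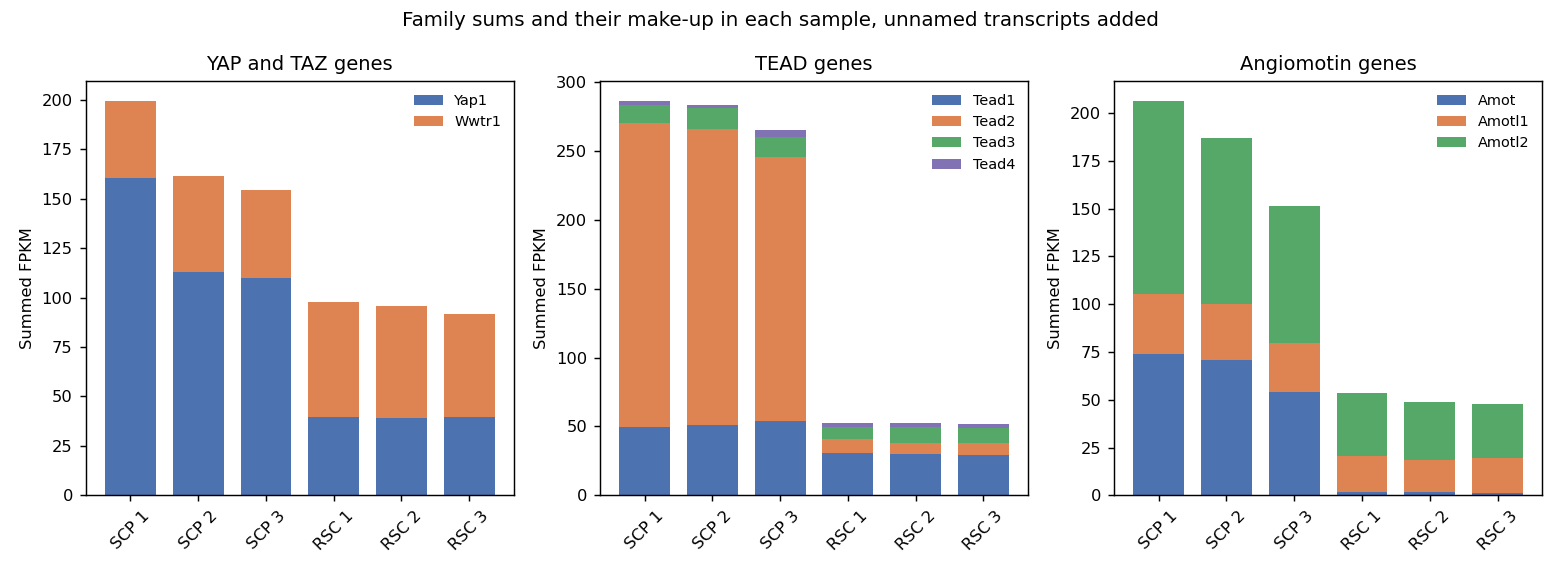
Summed FPKM of the YAP and TAZ genes, the TEAD genes and the angiomotin genes in each sample, unnamed transcripts added, with each bar divided by gene. Tead2 fills most of the TEAD bars in SCPs and Tead1 most of them in RSCs, and Amot is nearly missing from the RSC bars.

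Lats2 encodes the kinase that phosphorylates YAP and TAZ (rn6 chr15:37943609-37995169). It lay at 15.3, 13.7 and 11.4 FPKM in SCPs and at 13.6, 11.5 and 12.9 in RSCs. The groups overlapped, and the log2 fold change of -0.08 had a 95% interval of -0.44 to 0.29. With unnamed transcripts the values were 15.3, 13.7 and 15.7 against 17.1, 16.1 and 12.9 FPKM and the interval was -0.28 to 0.35.

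Its partner kinase Lats1, which is not among the 10 genes, lay at 23.0, 24.7 and 21.3 FPKM in SCPs and at 13.7, 14.4 and 15.3 in RSCs, and it was higher in SCPs (log2 fold change -0.63 ± 0.11, adjusted p = 0.0051). Of the kinases above them, Stk3 (MST2) had a log2 fold change of 0.18 (adjusted p = 0.31) and Stk4 (MST1) of -0.57 (adjusted p = 0.027). The adaptor Sav1 was at 0.14 (adjusted p = 0.61) and Mob1a, which activates the LATS kinases, at 0.36 (adjusted p = 0.027), so that none of these 4 passed the threshold. Its paralog Mob1b was listed at 0 in 5 of 6 samples in named transcripts. With unnamed transcripts Stk4 (-0.69) and Mob1b (-0.50) were lower in RSCs, Mob1a (0.36) was higher, and Sav1 was at -0.10 (adjusted p = 0.67). Lats1 was still called as lower in RSCs in that sum, by less (-0.48, limma adjusted p = 0.016). The FPKM values of Mob1a were the same in both sums, and only its estimated spread differed.

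Amot encodes angiomotin (rn6 chrX:116751231-116810233). It lay at 73.9, 50.7 and 54.0 FPKM in SCP 1 to 3 and at 2.02, 1.55 and 1.46 in RSC 1 to 3. The 3 RSC samples were uniformly low, and the mean was 35.5-fold higher in SCPs (log2 fold change -4.49 ± 0.19 on the FPKM + 1 scale, adjusted p = 3.6e-05). Of its 5 reference transcripts, 4 were above 0 in SCPs. The longest of these, of 7820 bases, held 31.9, 30.0 and 23.2 FPKM in SCPs and was listed at 0 in every RSC sample. Unnamed transcripts added to Amot in SCP 2 alone, which then lay at 70.9 FPKM, and gave a log2 fold change of -4.64 ± 0.16.

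Amotl2, an angiomotin that is also a known YAP target, lay at 101, 87.1 and 62.1 FPKM in SCPs and at 32.9, 30.4 and 27.8 in RSCs (rn6 chr8:111210252-111226217). Both of its sums were apart between the groups, and the mean of the named transcripts was 2.75-fold higher in SCPs (log2 fold change -1.40 ± 0.19, adjusted p = 0.0020). Amotl1 was listed at 0 in all 6 samples in its single named transcript and was not tested there (rn6 chr8:13037265-13156989). With unnamed transcripts Amotl1 lay at 31.6, 29.0 and 25.5 FPKM in SCPs and at 18.6, 16.8 and 18.3 in RSCs. It was higher in all SCP samples (log2 fold change -0.65 ± 0.11, adjusted p = 0.0019), and the difference was -0.39 after median-of-ratios scaling (adjusted p = 0.011).

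All 3 angiomotins were thus higher in SCPs once unnamed transcripts were added, but by unlike amounts. Amot made up 36.5% ± 1.3 of their sum in SCPs and 3.34% ± 0.37 in RSCs. Amotl2 made up 47.6% ± 1.2 and 60.8% ± 2.1, and Amotl1 15.9% ± 0.86 and 35.9% ± 2.3. The summed angiomotin FPKM was 143 ± 29.7 in SCPs and 32.1 ± 2.9 in RSCs in named transcripts, and 182 ± 28.0 against 49.96 ± 3.1 with unnamed ones. The sums of the coactivators were 89.4 ± 11.2 against 60.5 ± 4.5 FPKM, and 172 ± 24.2 against 94.95 ± 3.2. For each of the 3 family sums the groups were apart in both ways of counting, and the two-sided exact permutation p was 0.1, the smallest that 3 against 3 samples can give.

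**Figure D3:**
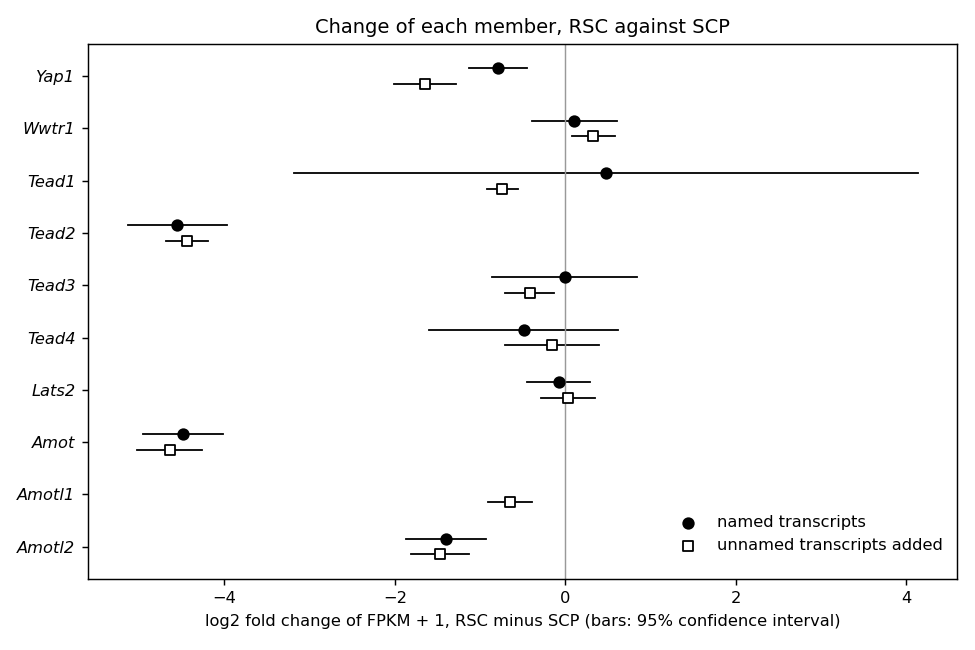
Log2 fold change of FPKM + 1 (RSC minus SCP) of each member with its 95% confidence interval, from named transcripts (filled circles) and with unnamed transcripts added (open squares). Tead2 and Amot lie beyond -4 in both sums, the interval of Tead1 narrows from one that spans 0 to one below it, and Amotl1 has a value only with unnamed transcripts.

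The order of the members changed between the groups. With unnamed transcripts, the order in SCPs was Tead2 (209 ± 15.4 FPKM), Yap1 (128 ± 28.5), Amotl2 (86.6 ± 14.6), Amot (66.3 ± 10.7), Tead1 (51.3 ± 2.3), Wwtr1 (44.0 ± 4.9), Amotl1 (28.7 ± 3.0), Lats2 (14.9 ± 1.0), Tead3 (14.2 ± 0.78) and Tead4 (3.39 ± 1.4). Amotl2 overlapped Amot and Lats2 overlapped Tead3 across the samples, while the other neighbours were apart. The place of Yap1 rests on its unnamed transcripts, most of which run well past the gene. In named transcripts Yap1 (56.5 to 77.7 FPKM in SCPs) stood below Amotl2 by mean and overlapped both Amotl2 and Amot. In RSCs the order was Wwtr1 (55.3 ± 3.2), Yap1 (39.6 ± 0.24), Amotl2 (30.4 ± 2.6), Tead1 (30.3 ± 0.77), Amotl1 (17.9 ± 0.95), Lats2 (15.3 ± 2.2), Tead3 (10.4 ± 1.3), Tead2 (8.72 ± 0.91), Tead4 (2.83 ± 0.093) and Amot (1.68 ± 0.30). There Amotl2 overlapped Tead1, Amotl1 overlapped Lats2, and Tead3 overlapped Tead2. By FPKM, Tead2 thus stood highest in SCPs and near the end in RSCs, and Amot stood last in RSCs. Multiplied by length and summed, Amot was the highest in SCP 1 and SCP 2 (556 and 521) and Tead1 in SCP 3 (504).

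Of 76 other Hippo pathway genes, 63 were tested, 16 were higher in SCPs and 4 in RSCs (31.7% called, against 40.5% of all genes). Their median log2 fold change was -0.37, or -0.20 relative to the median of all genes. With unnamed transcripts 27 were higher in SCPs and 9 in RSCs of 66 tested (54.5% called, against 57.4%). Upstream of the kinases, Wwc1, which encodes the scaffold KIBRA, lay at 4.30, 3.51 and 4.20 FPKM in SCPs and at 0.238, 0.130 and 0.0459 in RSCs (log2 fold change -2.14 ± 0.21). Fat4, an atypical cadherin, lay at 17.1, 22.4 and 16.8 against 1.71, 1.498 and 1.35 FPKM (-2.96 ± 0.18). Ajuba, a LIM protein that inhibits LATS kinases, lay at 14.6, 13.7 and 6.65 against 2.07, 1.57 and 1.59 FPKM (-2.14 ± 0.32).

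Over 4-fold higher in RSCs, as were 7.81% of all genes, was Rassf4, which lay at 13.8, 7.86 and 4.53 FPKM in SCPs and at 96.0, 64.0 and 131 in RSCs (3.39 ± 0.42). Rassf5, a RASSF gene known from lymphocytes, stood at a listed 0 in SCP 1 to 3 and lay at 4.78, 3.22 and 4.89 FPKM in RSCs. Which cells its RNA came from was not tested. At the TEAD end, Vgll2, a TEAD cofactor known from skeletal muscle, lay at 3.57, 2.50 and 4.31 FPKM in SCPs. It was listed at 0 in every RSC sample, and its source was not tested. Vgll3 had a log2 fold change of 0.88 and missed the threshold in named transcripts (adjusted p = 0.036). In the comparison with unnamed transcripts its FPKM values were the same, but it was called as higher in RSCs (limma adjusted p = 0.015). Only the estimated spread differed. Vgll4, a cofactor that represses TEAD, was listed at 0 in 5 of 6 samples in named transcripts and had a log2 fold change of -0.56 (adjusted p = 0.026) with unnamed ones.

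Of 20 YAP and TAZ target genes, 19 were in the files and 18 tested, of which 6 were higher in RSCs and 5 in SCPs (61.1% called, against 40.5% of all genes), with a median of 0.37 against -0.17. With unnamed transcripts the counts were 7 and 6 (72.2% called, against 57.4%). The best known targets moved in opposite directions. Ctgf, a secreted matricellular protein gene, lay at 153, 149 and 178 FPKM in SCPs and at 34.6, 29.6 and 23.5 in RSCs (log2 fold change -2.43 ± 0.16, adjusted p = 0.00013). Cyr61, of the same family, lay at 268, 251 and 197 FPKM in SCPs and at 514, 530 and 548 in RSCs (1.16 ± 0.12, adjusted p = 0.00073). The promoter windows of both are printed above, and both hold the TEAD letters. Of the 14 targets with a promoter entry, 4 hold a match. The windows of Tgfb2, Igfbp3, Myof, Gadd45a and Axl, described below, hold none. Ankrd1 was near 1 FPKM in 5 of 6 samples (-0.42, adjusted p = 0.40), and with unnamed transcripts it was higher in SCPs (-1.04).

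The other targets past 4-fold also fell on both sides. Tgfb2 lay at 24.0, 25.4 and 19.1 FPKM in SCPs and at 0.674, 1.23 and 1.27 in RSCs (-3.54 ± 0.21), and Igfbp3 at 77.6, 80.4 and 84.2 against 17.3, 23.9 and 16.0 FPKM (-2.05 ± 0.16). Myof, a membrane repair gene, lay at 1.94, 2.30 and 2.93 FPKM in SCPs and at 119, 117 and 128 in RSCs (5.18 ± 0.14). Gadd45a, a stress gene, lay at 12.6, 23.4 and 17.7 against 412, 470 and 470 FPKM (4.62 ± 0.22). F3, the tissue factor gene, lay at 6.90, 0.955 and 3.35 against 39.7, 49.6 and 38.6 FPKM (3.42 ± 0.50), and the receptor gene Axl at 21.1, 19.8 and 26.5 against 97.0, 202 and 146 FPKM (2.62 ± 0.28). Called targets thus lay on both sides. The called coactivator and TEAD genes were Yap1 and Tead2 in named transcripts, joined by Tead1 with unnamed ones, all higher in SCPs. Of all genes, 22.4% were called as higher in SCPs and 18.1% as higher in RSCs, or 34.2% and 23.2% with unnamed transcripts. Wwtr1 was called as higher in RSCs with unnamed transcripts and median-of-ratios scaling. Whether the targets followed the coactivator and TEAD genes was not tested.

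Of 8 genes tied to YAP, TAZ or TEAD1 in Schwann cells, 7 were tested, 3 were higher in RSCs and 1 (Sox10) in SCPs (57.1% called, against 40.5% of all genes). Sox10 was not called after median-of-ratios scaling (-0.084). With unnamed transcripts all 8 were tested, 5 were higher in RSCs and 1 in SCPs (75% called, against 57.4%). Egr2, the transcription factor of myelination, passed 4-fold, at 3.10, 4.25 and 3.80 FPKM in SCPs and 38.3, 34.7 and 39.2 in RSCs (3.03 ± 0.14).

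**Figure D4:**
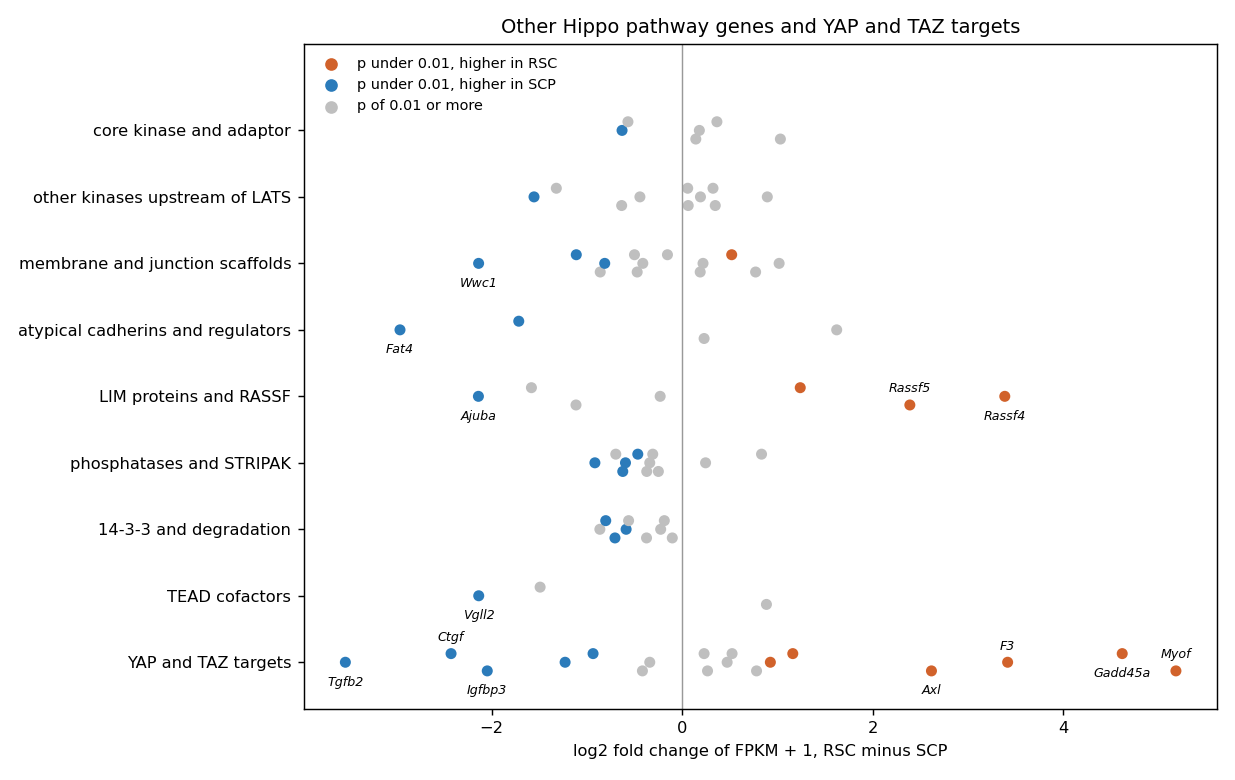
Log2 fold change of FPKM + 1 (RSC minus SCP, named transcripts) of each tested Hippo pathway gene outside the 10 members, by role, and of each tested YAP and TAZ target, coloured by call and direction. Labels mark called genes past 4-fold, among which Fat4 (-2.96) and Tgfb2 (-3.54) are furthest to the SCP side and Myof (5.18) and Gadd45a (4.62) furthest to the RSC side.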

How the data were processed

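RNA of 6 samples (3 SCP, 3 RSC) was read by the authors from stranded mRNA libraries, with reads taken from both ends. Per the labels, FastQC 0.11.2, TopHat2 2.1.0, Cufflinks 2.2.1 and rn6 were used. The authors deposited 1 Cufflinks transcript table per sample, with FPKM and the read coverage signal of each transcript. Here FPKM of named transcripts were summed by symbol, leaving out 77 transcripts per table whose names had become dates. Unnamed transcripts held 18.6% to 31.9% of all FPKM. As an alternative, those that shared a locus with a named gene were added to the gene with the largest overlap. They held 34.1% to 39.0% of the unnamed FPKM in SCPs and 52.4% to 58.7% in RSCs, and the rest was left out. How reads shared between paralogs or overlapping genes were divided is not stated.

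Genes averaging 1 FPKM or more over the samples were compared with limma 3.58.1 (R 4.3.3; variance trend, no replicate block, two-sided) on log2(FPKM + 1), which understates changes of low genes, with Benjamini-Hochberg adjustment over all genes tested. Calls use the study's unadjusted p under 0.01. Alternatives were a pseudocount of 0.1, no filter or a mean of 5 FPKM, quantile normalization, median-of-ratios scaling, no trend, a replicate block, adjusted p, the highest transcript, unnamed transcripts, values of 0 left out where another sample of the group reached 5 FPKM, and each sample left out. The tables give no read counts, so no count model was used. On simulated data with 12549 genes, 96.5% of 200 genes changed by a log2 fold change of 3 were called, all in the right direction, and 1.14% of unchanged genes. The noise was normal and the changed genes had a mean log2(FPKM + 1) above 3. The rate therefore does not describe lower genes or smaller changes.

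Absolute depth is unknown, so no counting interval is given. Relative depth, from coverage over FPKM, was 0.88 to 1.00 of the deepest sample in SCPs and 0.79 to 0.84 in RSCs. No 2 tables were identical. A value of 0 can be a failed estimate. The members and gene lists were chosen with earlier results of these data known. Named outside the members are the core kinases and adaptors, Ctgf, Cyr61, Ankrd1, Vgll3, Vgll4, list genes past 4-fold and defining markers. Promoter motifs were searched on both strands in RefSeq windows.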

Additional observations from a re-analysis of the deposited data

How the results depend on the processing

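The calls of Yap1, Tead2, Amot and Amotl2 held under every alternative run except that Yap1 missed the threshold when the highest transcript stood for each gene (-1.01, adjusted p = 0.038), and the count of called members was 4 without any 1 sample, at an adjusted p under 0.01 and with a replicate block. Adding unnamed transcripts moved the calls of other Hippo genes from 20 to 36 and of all genes from 5268 to 8040. The log2 difference of the coactivator sum went from -0.56 to -0.85 with unnamed transcripts and to -0.34 after median-of-ratios scaling. The TEAD sum went from -3.28 to -2.41 and the angiomotin sum from -2.14 to -1.85 with unnamed transcripts, and the latter to -1.81 with the highest transcript. Directions turned for genes that were not called: Tead3 (0.039 and 0.18) and Lats2 (0.0035 and 0.12) under quantile normalization and median-of-ratios scaling, Tead1 (-0.74), Lats2 (0.033), Mob1b (-0.50) and Sav1 (-0.10) with unnamed transcripts, and Tead1 with values of 0 left out (-1.52). Leaving out 1 sample gave -0.043 to 0.24 for Wwtr1, -0.27 to 1.97 for Tead1, -0.35 to 0.18 for Tead3, -0.18 to 0.013 for Lats2 and -0.042 to 0.26 for Sav1.

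Further alternatives on the sums with unnamed transcripts were chosen after seeing the data. There Tead4 turned to 0.043 under median-of-ratios scaling and to 0.067 with FPKM times length, Lats2 turned to -0.0076 with FPKM times length, and leaving out 1 sample gave -0.044 to 0.15 for Lats2 and -0.30 to 0.085 for Tead4. Wwtr1 passed the threshold under median-of-ratios scaling, as did Tead3 with FPKM times length (-0.41, adjusted p = 0.0083). The cause of these changes was not tested. Of called genes, 44.6% were higher in RSCs, and 56.1% after median-of-ratios scaling.

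No pairing by replicate number was seen: the deviations of same-numbered SCP and RSC samples correlated at 0.044, -0.0049 and 0.026. Samples with unlike numbers correlated at -0.048 to 0.022. With 3 samples per group, such values cannot exclude that samples were prepared in pairs. The replicate block called 18 other Hippo genes, 8 targets and 4275 genes in all. Absolute depth is unknown, so the precision rests on 3 samples per group.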
